A study of Mus musculus with 18 samples.

Results

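Asxl1 and Egln2 each carry 1 listed 5-methylcytosine (m5C) site in testis mRNA, and these 2 genes are described here out of 235 genes with 251 listed sites. They were selected on measured m5C levels, chosen by a level that was lower in all 3 Nsun7 knockout libraries than in all 3 wild-type (WT) libraries. The levels themselves made the choice, so the difference between genotypes at these sites is a description and was not tested. Testes came from adult mice, either WT or Nsun7 knockout; the labels name no strain, allele or age in weeks, and do not say whether libraries of a genotype came from different animals. In ultrafast bisulfite sequencing, cytosine that carries no methyl group is turned into uracil, so the m5C level of a position is read as the percentage of its reads in which C remains; incomplete conversion would add to it. Nsun7 belongs to the NOL1/NOP2/Sun family of RNA m5C methyltransferases, and the series title calls it catalytically inactive on RNA.

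ASXL1 is a chromatin protein of the Polycomb system, which keeps genes silent through marks on histones. It binds the deubiquitinase BAP1 and is needed for that complex to remove the ubiquitin that Polycomb repressive complex 1 places on histone H2A. EGLN2, also named PHD1, is an oxygen-dependent prolyl hydroxylase. When oxygen is present, enzymes of its family hydroxylate the alpha subunits of hypoxia-inducible factors (HIF), which are then bound by the VHL ubiquitin ligase and degraded. m5C in mRNA is set mainly by NSUN2 and NSUN6.

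The Asxl1 site (ENSMUSG00000042548) lies at position 153238687 of chromosome 2 on the plus strand, and the Egln2 site (ENSMUSG00000058709) at position 26864955 of chromosome 7 on the minus strand. These are the coordinates of the files, whose build is GRCm39 per the submitters' processing notes. Whether either site is exonic, intronic or in a UTR, and which bases surround it, was not analysed here. In the RefSeq gene table of GRCm38.p6, used for names, gene types and gene overlaps, both are protein-coding genes overlapped by 0 other genes. Neither gene appears among the 192 small RNA sites.

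At Asxl1, 11.7% of WT reads and 5.99% of knockout reads showed C on average. WT replicate 1 had 11 C reads of 94 (11.7%), WT replicate 2 had 12 of 103 (11.7%), and WT replicate 3 had 12 of 101 (11.9%). Knockout replicate 1 had 6 of 115 (5.22%), replicate 2 had 6 of 127 (4.72%), and replicate 3 had 9 of 112 (8.04%). The WT libraries thus stood almost on the same value, while the knockout libraries were more spread, with replicate 3 the highest of them. As means the levels were 11.7% ± 0.121 and 5.99% ± 1.79 (SD, n = 3), a difference of -5.75 percentage points and a ratio of 0.510. Over the 9 pairs of a knockout with a WT library the difference ran from -7.16 to -3.61 points.

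At Egln2, WT libraries averaged 25.2% ± 6.01 and knockout libraries 16.9% ± 0.858 (SD, n = 3). Here the WT libraries were the ones that spread. WT replicate 1 had 11 C reads of 56 (19.6%), WT replicate 2 had 19 of 78 (24.4%), and WT replicate 3 had 6 of only 19 (31.6%). Knockout replicate 1 had 13 of 73 (17.8%), replicate 2 had 10 of 62 (16.1%), and replicate 3 had 4 of only 24 (16.7%). The highest WT level therefore came from the library with the fewest reads. The difference of the means was -8.33 points, a ratio of 0.670, and ran from -15.4 to -1.83 points over the 9 pairs.

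**Figure D1:**
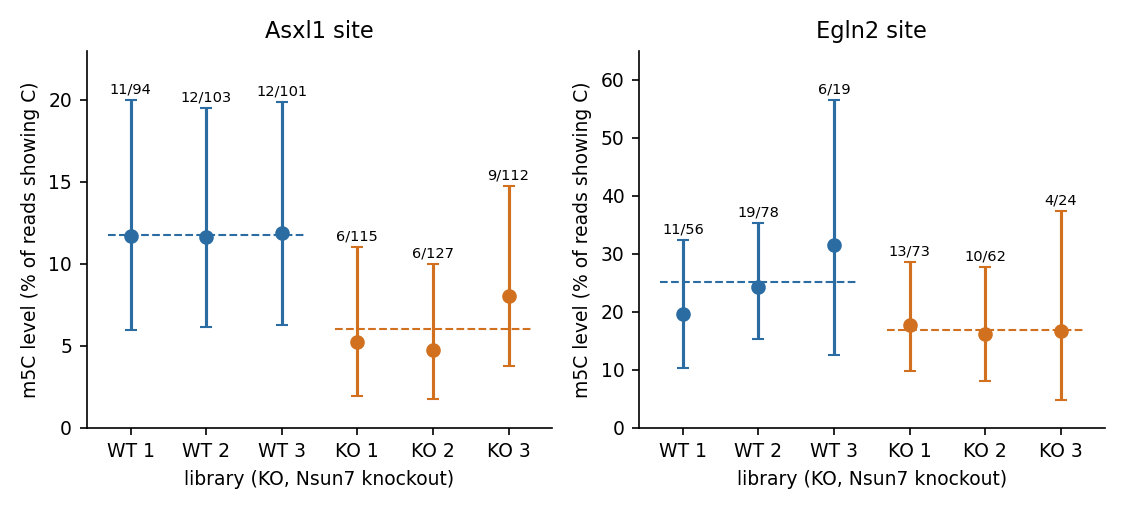
m5C level (% of reads showing C) at the Asxl1 and Egln2 sites in each WT (blue) and Nsun7 knockout (orange, KO) mRNA library. Points are library levels, bars exact binomial 95% intervals, dashed lines group means, and the numbers C reads over coverage; the points of the genotypes do not overlap, from 11.7% to 11.9% against 4.72% to 8.04% at Asxl1 and from 19.6% to 31.6% against 16.1% to 17.8% at Egln2, while the intervals do.

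The levels of single libraries were imprecise. The exact binomial (Clopper-Pearson) 95% interval of an Asxl1 library ran from 6.17% to 19.5% in WT replicate 2 and from 1.94% to 11.0% in knockout replicate 1. At Egln2 it ran from 12.6% to 56.6% in WT replicate 3 and from 4.74% to 37.4% in knockout replicate 3. At each gene, the intervals of all 9 pairs of a WT with a knockout library overlapped. These intervals reflect read counting alone. Any PCR copies counted as separate reads would make the true error larger, and such copies were not analysed here. Counting alone gives the difference of means a standard error of 2.25 points at Asxl1, against a difference of -5.75, and of 5.28 points at Egln2, against -8.33. The sites were chosen for this difference, so setting it against its error is a description and no test.

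The separation of the libraries rested on a few reads. At Asxl1 the lowest WT library (replicate 2) and the highest knockout library (replicate 3) were 3.61 points apart. With 4 fewer C reads in that WT library, or 5 more in that knockout library at the same coverage, the genotypes would overlap. At Egln2 the nearest libraries, replicate 1 of each genotype, were 1.83 points apart. There, 2 fewer C reads in the WT library or 2 more in the knockout library would close the gap. The gap was 1.12 times the larger of the counting SDs of a single library at Asxl1 and 0.260 times at Egln2.

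**Figure D2:**
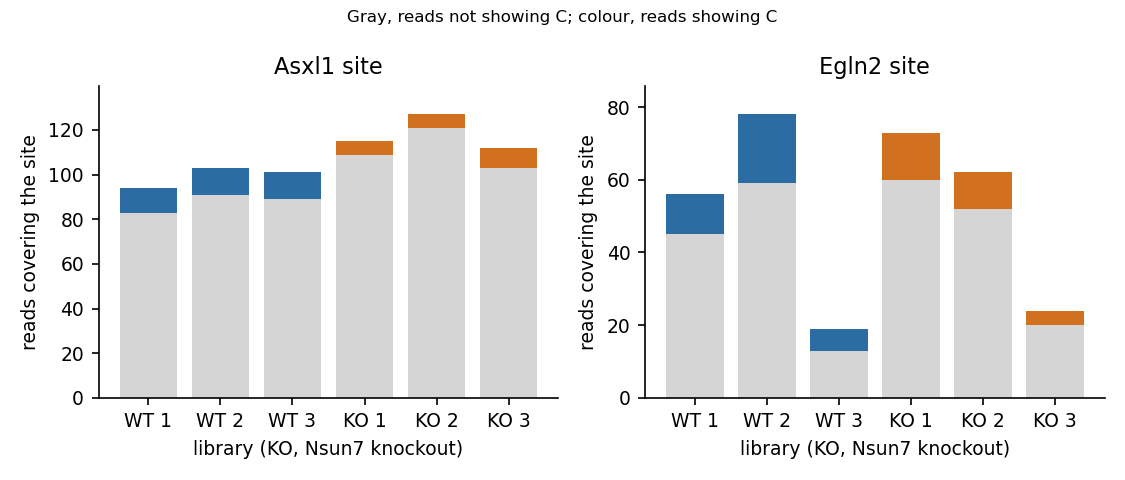
Reads covering the Asxl1 and Egln2 sites in each mRNA library, split into reads showing C (blue in WT, orange in the Nsun7 knockout, KO) and the other reads (gray). Coverage was 94 to 127 at Asxl1 in all libraries, and at Egln2 it was 56 to 78 except in replicate 3 of both genotypes, with 19 and 24 reads.

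Summed over libraries, Asxl1 had 35 C reads of 298 in WT and 21 of 354 in the knockout, or 11.7% and 5.93%. Egln2 had 36 of 153 (23.5%) and 27 of 159 (17.0%). For Egln2 this pooled difference of -6.55 points is smaller than that of the library means, because WT replicate 3 then counts by its 19 reads.

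Coverage of Asxl1, set over the median coverage of all listed sites in the same library, was 0.691, 0.837 and 0.981 in WT and 0.772, 0.858 and 1.11 in the knockout. The genotypes overlapped in this value. For Egln2 it was 0.412, 0.634 and 0.184 in WT and 0.490, 0.419 and 0.238 in the knockout, also overlapping and lowest in replicate 3 of both genotypes. Coverage is the denominator of the level that chose the genes, so it was not tested. In whole testis, fewer cells of a type and less RNA per cell cannot be told apart.

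The library that mattered most differed between the genes. Leaving out 1 library at a time kept the Asxl1 difference between -6.77 points (without knockout replicate 3) and -5.12 points (without knockout replicate 2). Without any 1 of the WT libraries it was -5.80 to -5.68 points. The Egln2 difference of -8.33 points was -5.13 points without WT replicate 3 and -11.1 points without WT replicate 1, and between -8.80 and -7.96 points without any 1 of the others. With both replicate 3 libraries left out, those with under 30 reads, it was -5.03 points. That the difference stays negative when libraries are left out follows from how the sites were chosen.

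**Figure D3:**
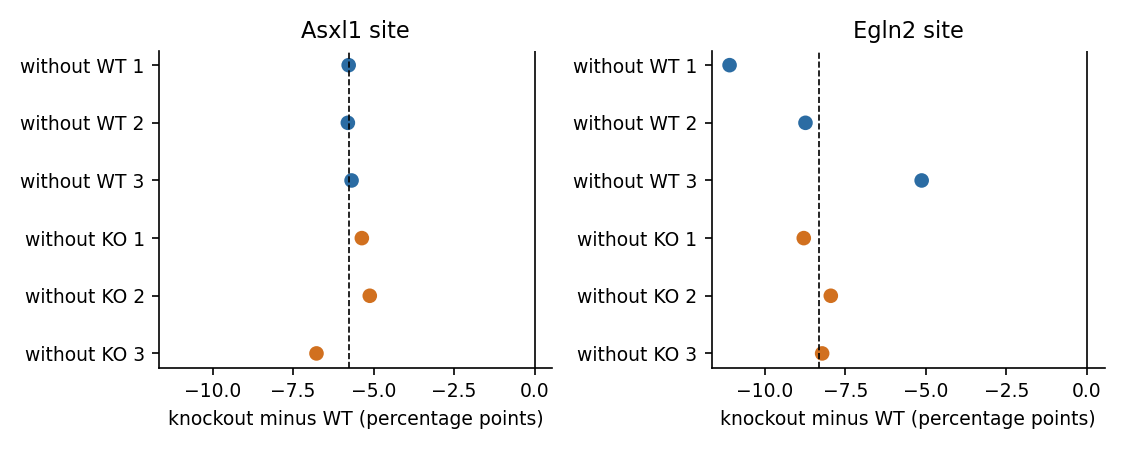
Difference in mean m5C level, Nsun7 knockout minus WT in percentage points, at the Asxl1 and Egln2 sites with each library left out in turn (blue, a WT library; orange, a knockout library, KO). The dashed lines are the differences over all 6 libraries, -5.75 and -8.33, and the point farthest to the right for Egln2, -5.13, is without WT replicate 3.

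Between libraries, Asxl1 in WT varied less than counting reads gives. The SD of 0.121 points was 0.0375 times the SD of 3.23 points from counting, the lowest such ratio of the 251 sites in WT. The knockout SD of 1.79 points was 0.820 times its counting SD of 2.18. Egln2 showed the reverse, with an SD at 0.850 times counting in WT and 0.148 times in the knockout, where 5 sites had a lower ratio. Choosing sites whose genotypes do not overlap favours a small spread, so these ratios describe the chosen sites. Over all sites the variance between libraries was on average 1.01 times that from counting in WT and 1.09 times in the knockout.

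**Figure D4:**
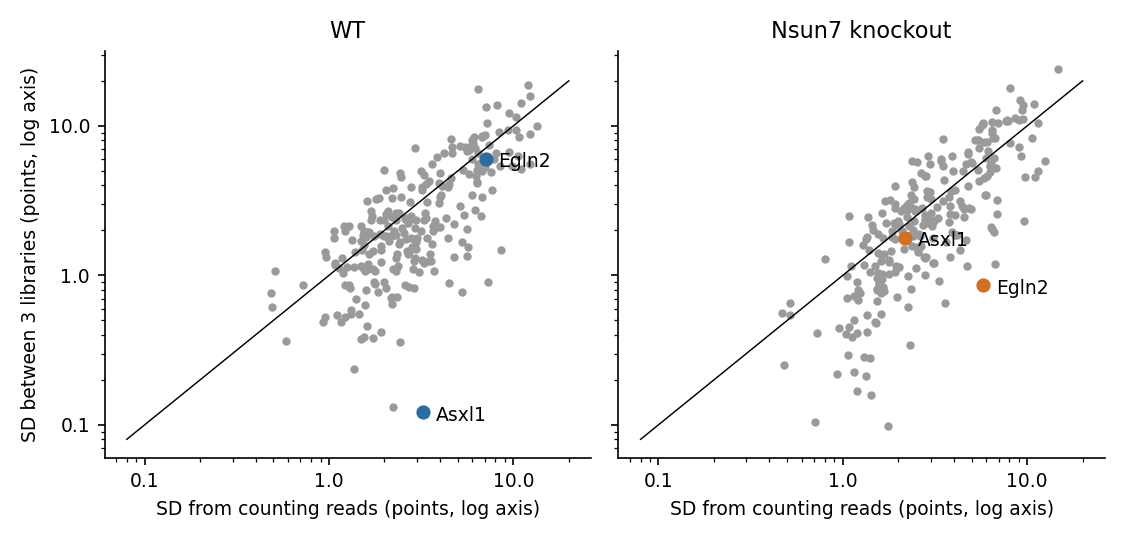
SD of the m5C level between the 3 libraries of a genotype (y axis, percentage points, log) against the SD from counting reads (x axis, percentage points, log) for the 251 mRNA sites, in WT and in the Nsun7 knockout. The line marks equal SDs; Asxl1 in WT (0.121 against 3.23) and Egln2 in the knockout (0.858 against 5.80) lie far below it.

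Across all mRNA sites, the 3 knockout levels lay below the 3 WT levels at 16 of 251, 6.37%, and above them at 13, 5.18%. Asxl1 and Egln2 are 2 of these 16. The quasi-binomial model of the read counts with Benjamini-Hochberg adjustment called 0% of the 251 sites different between genotypes, with 20 at an unadjusted p under 0.05. limma on the levels and Fisher's exact test on pooled reads called 0 as well, with 14 and 15. The median difference over all sites was -0.39 points and the median ratio 0.965.

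**Figure D5:**
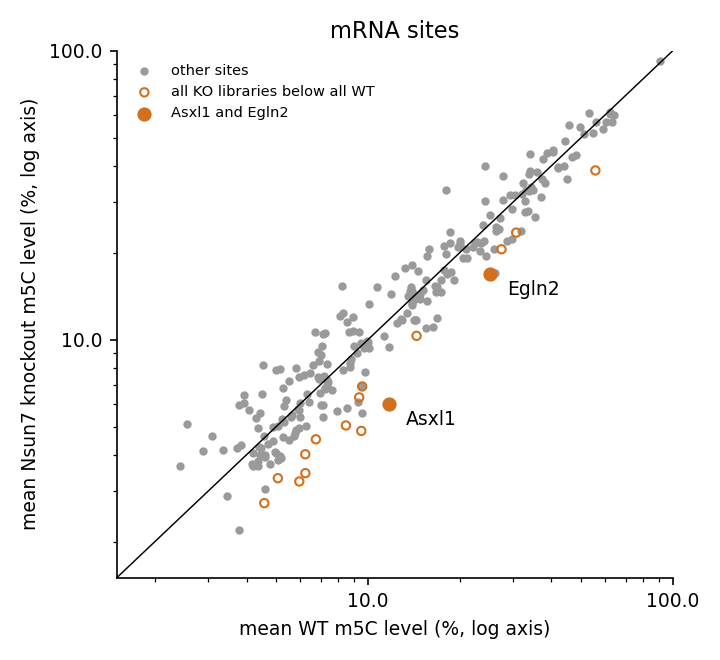
Mean m5C level in the Nsun7 knockout (KO) against that in WT for the 251 mRNA sites (log axes, %), with equal levels on the line. Open orange circles are the other 14 sites with all knockout libraries below all WT libraries, and filled ones are Asxl1 (11.7% and 5.99%) and Egln2 (25.2% and 16.9%), both below the line by construction.

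Ranked with all sites, Asxl1 had the 2nd lowest ratio of knockout to WT, after Eif4b (translation initiation factor 4B) at 0.508, and the 13th most negative difference. Egln2 had the 5th most negative difference and the 14th lowest ratio. The choice of the sites used the same levels and so favours such ranks. In each WT library the Asxl1 level was above that of 132 to 134 of the 251 sites, close to the middle, and in the knockout libraries above 41 to 94. Egln2 was above 176 to 210 sites in WT and 159 to 170 in the knockout. Egln2 was among the more shallowly covered sites, 211th by mean coverage, and Asxl1 was 148th.

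Among the 16 sites, Asxl1 had the 2nd widest gap between the nearest libraries and Egln2 the 6th, again on the levels that chose them. At the edge of the rule, Igfbp7 (an insulin-like growth factor binding protein) was just inside with a gap of 0.0333 points, at means of 14.4% in WT and 10.3% in the knockout. Btbd1 was next, with a gap of 0.261 points at 5.96% and 3.23%. Just outside were Sec61a1, the channel subunit of the endoplasmic reticulum translocon, whose nearest libraries were equal at 33.3%, and the nuclear import receptor Ipo5, with a gap of -0.0191 points, an overlap. The Sec61a1 means were 36.9% and 31.2%, a difference of -5.79 points. A site that differed by about as many points as Asxl1 thus missed the rule, but its ratio was 0.843, against 0.510 at Asxl1.

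Among the 216 other sites with at least 30 reads in every library, those whose levels followed Asxl1 most closely over the 6 libraries were in Ubxn10, Znhit2 and Tbc1d1, at a Pearson r of 0.916, 0.902 and 0.878. The WT and knockout means were 5.07% and 3.32% for Ubxn10 and 9.58% and 6.89% for Znhit2. For Egln2, among 217 sites, they were in Rrbp1 (r = 0.983), Med16 (r = 0.962) and Ipo5 (r = 0.953). Rrbp1, a ribosome-binding protein of the endoplasmic reticulum, stood at 9.37% ± 2.51 and 6.32% ± 0.342 (SD, n = 3), with WT replicate 3 its highest library, as at Egln2. Med16, a Mediator subunit, had 4.57% and 2.72%. These correlations are the highest of many over 6 points that share the same libraries. Ubxn10, Znhit2, Rrbp1 and Med16 are themselves sites with all knockout libraries below all WT libraries. The members were chosen for that step between genotypes, so the choice favours a high correlation with such sites.

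A Polycomb list covered the BAP1 complex, both repressive complexes and their demethylases and deubiquitinases. Of its 61 names, 60 were symbols in the RefSeq gene table, and 1 had a site, Asxl1 itself. The same was so for 1 of 49 oxygen-sensing genes, Egln2 itself, on a list with the other Egln enzymes, the HIF subunits, Vhl and HIF target genes. These lists do not hold every gene of either system. Each list includes its member, so a count of at least 1 was fixed in advance. The share of all genes with a listed site was not computed, so the counts say nothing of either system.

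The 6 mRNA libraries held 42086 to 55140 reads when coverage is added up over all sites (a read counts once at each site it covers), and the mean level over the 250 sites with a deposited level in every library was 16.3% to 17.0%. It was lowest in knockout replicate 3, where Asxl1 stood higher than in the other knockout libraries. Centring each library on its mean level left the differences at -5.48 points (Asxl1) and -8.06 points (Egln2). Of marker genes, 3 of 17 spermatocyte and spermatid genes, 1 of 8 Leydig genes and 1 of 8 Sertoli genes had a listed site, and 0 of 3 blood genes did. For these counts too no share over all genes was computed, so they are not read as a result about the tissue. No row names Nsun7 (0 of 251), so the mRNA table holds no check of the knockout.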

How the data were processed

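Per the file headers, the mRNA table gives coverage and C reads, deposited counts of reads per library without normalization, and the m5C level, which the authors give as a fraction, C reads over coverage rounded to 2 decimals. The submitters' processing notes name cutadapt and Trimmomatic, the aligners HISAT2 and Bowtie2, and SAMtools; their versions, and how sites were selected, are not given in the sources used here. Levels were recomputed as percentages from the counts. All 6 mRNA libraries were used, 3 per genotype. The members and lists were chosen with earlier results of these data known. The whole table was fitted with a quasi-binomial logistic model per site (R 4.3.3, coverage of at least 10, 2 or more libraries per genotype, Benjamini-Hochberg over 251 sites, threshold 0.05), with limma 3.58.1 and Fisher's exact test as alternatives. The model was tested on simulated sites that lost a larger share of their level than Asxl1 or Egln2. Its power for smaller changes was not measured. p-values of the model and limma measure only the spread between libraries, which may be technical, and those of Fisher's test only read counting. Intervals used scipy 1.17.1. The counting SD of a genotype is the root mean square over its libraries of the binomial SD at the pooled level. Named sites are the members, the 2 nearest each side of the rule's edge, the 3 most correlated sites per member and those on the lists; Eif4b was named after its value was seen.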

Additional observations from a re-analysis of the deposited data

How the results depend on the processing

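The differences at Asxl1 and Egln2 were negative with pooled reads, deposited rounded levels, 0.5 added to C reads and 1 to coverage, coverage of at least 30, centred libraries and each library left out. The rule that chose the sites fixes that sign with pooled reads, coverage of at least 30 and each library left out. Rounding cannot reverse it, so the sign in these settings shows nothing of stability. The Egln2 difference was -5.13 points without WT replicate 3, against -8.33. The residuals of same-numbered libraries correlated at 0.0862, -0.0107 and 0.0812, so the numbers were not taken to pair the libraries. Same-numbered libraries differed by -6.48, -6.93 and -3.85 points at Asxl1 and by -1.83, -8.23 and -14.9 points at Egln2, so with the replicate block the means stay at -5.75 and -8.33, and the model with the block called 0 sites. The number of sites with all knockout below all WT levels, 16, was 12 with rounded levels and with centred libraries, and 14 at coverage of at least 30. With 1 library left out it was 27 to 35, since 5 libraries separate more easily than 6. Sites called by the quasi-binomial model were 0 to 1 with 1 library left out. The 1 call, without knockout replicate 3, was Asxl1, named after it was seen. That contrast chose the site, so the call is no support for it. The difference there was then -6.77 points. The model sets no lower limit on the spread it estimates at a site. At Asxl1 the WT SD was 0.0375 times that from counting reads, in this fit as in the main fit, which made no call. The knockout levels that remained were 5.22% and 4.72%, and the one left out was 8.04%. The part of each library in the call was not tested. Coverage of 19 to 127 reads limits what these sites can show.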
